A study of Mus musculus with 4 samples.

Results

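The clustered protocadherin locus on mouse chromosome 18 was examined by whole-genome bisulfite sequencing, which reads single cytosines, here summarised as percent methylation per region. Its members were chosen by position and name: every region of the deposited methylation table on chromosome 18 whose gene name starts with Pcdha, Pcdhb or Pcdhg, and every region between the outermost of these. This gave 433 of 849172 regions, of which 338 carry the name of a member and the rest lie between regions so named. They run from chr18:36928807 to 37842129 in build mm10 (913323 bp, of which 97.9% is covered by regions). By the deposited names, 126 regions belong to the alpha cluster (36928807 to 37188905), 108 to the beta cluster (37264755 to 37521499) and 129 to the gamma cluster (37672586 to 37842129). A further 20 regions lie between alpha and beta and 50 between beta and gamma. By gene annotation Pcdhga1 and Pcdhga2 start in this last stretch. The locus holds 58 protocadherin genes, all read in the same direction: 12 alpha genes, 22 beta genes, 12 of the gamma A subfamily, 7 of the gamma B subfamily and 5 C-type genes (Pcdhac1, Pcdhac2, Pcdhgc3, Pcdhgc4 and Pcdhgc5). One of the gamma B genes, Pcdhgb8, is annotated as a transcribed pseudogene.

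DNA came from CA1, a field of the hippocampus made up largely of excitatory pyramidal neurons, of C57B6/J mice at 117 days of age. The 4 libraries form 2 groups of 2: Tet2+f_Camk2aCre and Tet2+f. The second has no Cre in its label and is called the control here, although its label carries Tet2+f as well. Camk2aCre is read as Cre recombinase made from the Camk2a promoter, which is active in excitatory forebrain neurons, and the series text calls the tissue haploinsufficient for Tet2 in its glutamatergic neurons. Tet2 is an enzyme that oxidises 5-methylcytosine, so the design asks how methylation stands when its dose is lowered. No group carries Cre without Tet2+f, so reduced Tet2 and the Cre transgene cannot be told apart. The tissue was not sorted, and a level averages over all its cells. No label ties a library to its own mouse, so p-values here measure the spread between libraries, which may be technical.

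Clustered protocadherins are cadherin-like proteins on the surface of neurons. Each alpha or gamma gene has its own large first exon, the variable exon, with its own promoter, and is spliced to constant exons at the end of its cluster; beta genes consist of a single exon. A single neuron uses only a few of the alternate promoters, picked largely at random, and the resulting combination of proteins lets the branches of a neuron recognise each other as self. C-type genes are the exception, since their use is more even from cell to cell. Methylation of the promoter and variable exon is known to accompany a silent protocadherin gene, and the insulator protein CTCF binds the promoters of active ones.

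The locus stood apart from the genome by its intermediate methylation. Of the 185 locus regions under 1000 bp, 75.1% had a mean level between 20 and 80%, 12.4% lay below and 12.4% above. Of the 85649 regions under 1000 bp elsewhere, 13.8% were intermediate, 59.4% lay under 20% and 26.8% over 80%. Short regions elsewhere on chromosome 18 gave the same picture, with 13.2% intermediate. Regions of 1000 bp or more were intermediate in 75.8% of 248 cases in the locus and in 32.0% of 762932 cases outside it. Short regions were also more frequent here: they made up 42.7% of the locus and 10.1% of the regions elsewhere, and the median region length was 1287 bp against 2589 bp.

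The mean level of short regions was higher in the locus than elsewhere. Short locus regions had mean levels of 54.6% and 55.1% in control and 54.1% and 54.7% in Cre libraries. Short regions elsewhere had 33.0% and 33.1% in control and 33.3% and 33.1% in Cre libraries, all 4 below every locus value. The difference was 21.5 ± 0.479 points (SD, n = 4 libraries). It was positive in 4 of 4 libraries, where an exact two-sided sign-flip permutation test over libraries can reach no lower p than 0.125, the value found. Against short regions elsewhere on chromosome 18 the difference was 21.95 ± 0.495 points. This difference depends on the length limit: with short meaning under 500 bp it was 37.9 points, and with short meaning under 2000 bp the locus lay lower than the rest, at -6.58 points, and lower than the rest of chromosome 18, at -8.10 points. Long regions went the other way at the original limit, with 69.1 ± 0.328% in the locus and 80.7 ± 0.164% outside (SD, n = 4 libraries).

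**Figure D1:**
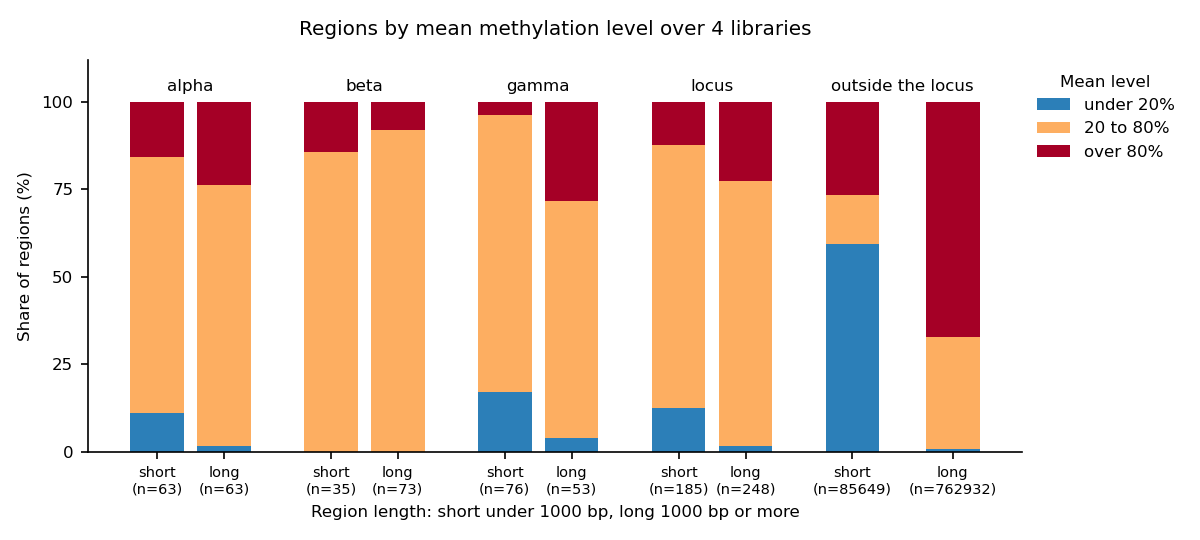
Share of regions (%) with a mean level over 4 libraries under 20%, from 20 to 80% and over 80%, for regions under 1000 bp (short) and of 1000 bp or more (long); n is the number of regions. In the locus 75.1% of short regions are intermediate, against 13.8% of short regions outside it.

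Libraries of a group lay close to each other at these intermediate regions. For short intermediate regions, the median gap between the 2 libraries of a group was 4.43 points (control) and 4.69 points (Cre) in the locus, and 5.27 and 5.06 points outside. For long intermediate regions it was 2.83 and 2.89 points in the locus against 3.35 and 3.24 points outside. Read depth per region is unknown, as only percentages were deposited.

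The 3 clusters differed in level, with gamma lowest. Mean alpha levels were 65.6% and 65.2% in control and 64.4% and 64.6% in Cre libraries. Beta levels were 67.9% and 68.7% in control and 68.6% and 68.6% in Cre libraries. Gamma levels were 52.0% and 52.3% in control and 51.9% and 51.6% in Cre libraries, below every alpha and beta value. Gamma lay 13.0 ± 0.466 points below alpha (alpha minus gamma) and 16.5 ± 0.477 points below beta (beta minus gamma; SD, n = 4 libraries). Alpha minus beta was -3.50 ± 0.858 points. Each of the 3 differences had the same sign in 4 of 4 libraries, with an exact sign-flip permutation p of 0.125, the smallest possible, also after adjustment over the 3 pairs. The order of alpha and beta was not settled by these values: weighted by region length, alpha minus beta was 1.55 points, and with each library's median over regions in place of its mean it was 0.112 points. Gamma remained the lowest under those settings. Alpha minus gamma was then 8.34 and 15.7 points, and beta minus gamma was 6.78 and 15.6 points.

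Short and long regions separated in the gamma cluster above all. Gamma regions under 1000 bp, 76 of 129, had a mean level of 42.9 ± 0.189% and the longer ones 65.0 ± 0.705% (SD, n = 4 libraries), a difference of -22.04 ± 0.779 points. In alpha, where 63 of 126 regions were short, the difference was -9.35 ± 0.763 points (60.3% against 69.6%). In beta, where 35 of 108 were short, it was 1.41 ± 1.23 points (69.4% against 68.0%), close to the spread across libraries, and it turned to -3.10 points with short meaning under 500 bp and to -0.0399 points with under 2000 bp. Over the whole locus short regions were 14.5 points below long ones (short minus long, -14.5 ± 0.506). Each of these 4 differences kept its sign in 4 of 4 libraries, with an exact sign-flip permutation p of 0.125. These means include the C-type genes. All 7 short alpha regions under 20% lay at Pcdhac1 and Pcdhac2, and most of the 13 short gamma ones at Pcdhgc3 and Pcdhgc4. Medians over regions were 67.6% (short) and 73.7% (long) in alpha, and 46.1% and 68.4% in gamma. Differences without the C-type regions were not computed.

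Region lengths ranged from 171 to 9942 bp. The shortest gamma region (chr18:37732757-37732927, 171 bp), 1786 bp inside Pcdhgb5, stood at 48.3%. The longest (37702861-37707233, 4373 bp), which ends at the start of Pcdhga6, stood at 60.4%. In alpha the shortest region (36954139-36954378, 240 bp), 1450 bp inside Pcdha4, stood at 64.9%. The longest (37023138-37033079, 9942 bp), beyond the variable exon of Pcdha12, stood at 75.3%. In beta the shortest (37515417-37515761, 345 bp), within Pcdhb21, stood at 51.6% and the longest (37371341-37379477, 8137 bp), between Pcdhb8 and Pcdhb9, at 75.6%. In each cluster the shortest region was thus the lower of the pair. Near the limit itself levels were mixed. The 3 regions just under 1000 bp (989, 991 and 993 bp) had 63.9%, 82.0% and 21.9%, and the 3 just over it (1002, 1003 and 1006 bp) had 30.9%, 59.9% and 49.5%.

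**Figure D2:**
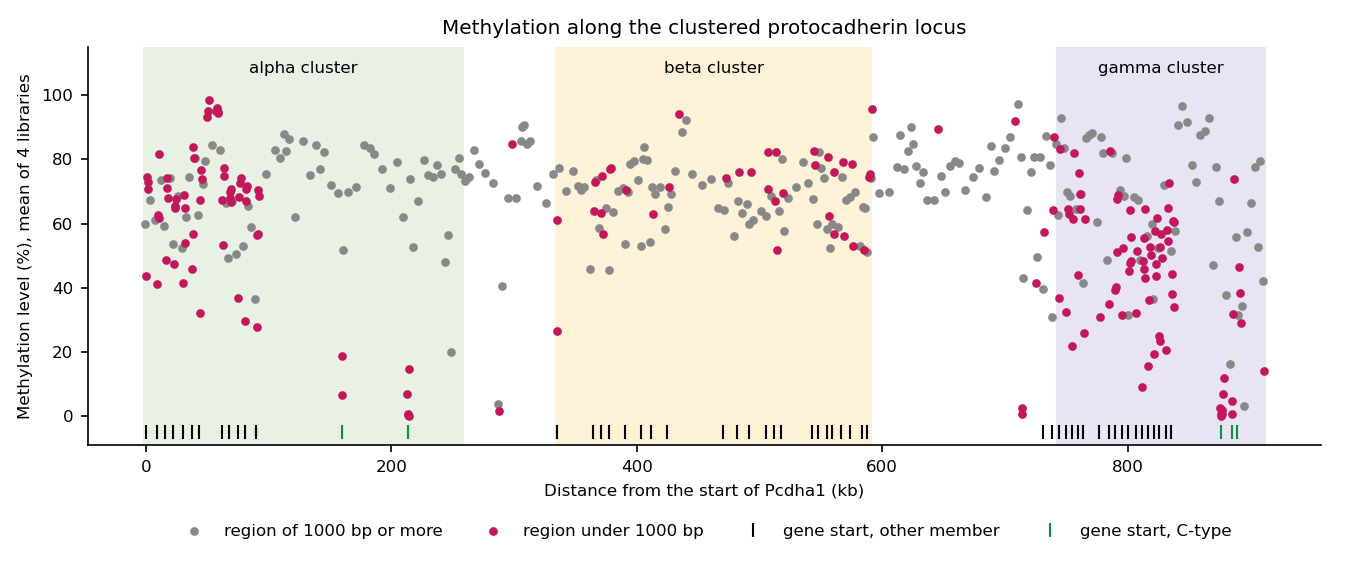
Methylation level of each region (%, mean of 4 libraries) against distance from the start of Pcdha1 (kb), with regions under 1000 bp and longer ones in different colours and gene starts as ticks at the bottom. Most regions lie between 20 and 80%, and the low ones gather at the C-type starts.

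Position relative to the gene start set out the pattern more finely. Levels over the first 500 bp of a gene weight each region by its overlap, so their detail is no finer than the regions. The 12 alpha genes had a mean level of 47.1 ± 1.65%, the 22 beta genes 60.4 ± 0.492% and the 12 gamma A genes 36.3 ± 1.02%. The 7 gamma B genes had 34.5 ± 1.36% and the 5 C-type genes 10.9 ± 1.36% (SD, n = 4 libraries). The order of these means, beta, alpha, gamma, C-type, was the same in every library, while gamma A and gamma B lay within 3 points of each other. From 1000 to 1500 bp into the gene, within the variable exon, the levels were 69.4% for alpha, 74.7% for beta, 72.3% for gamma A, 62.5% for gamma B and 32.5% for C-type genes. The variable exon was thus more methylated than the gene start by 36.1 ± 0.822 points in gamma A, 28.0 ± 1.02 in gamma B, 22.3 ± 1.70 in alpha, 21.6 ± 3.12 in C-type and 14.3 ± 0.602 in beta genes. From 1500 to 2000 bp the 2 gamma subfamilies lay farther apart, with 75.7 ± 0.475% in gamma A and 56.0 ± 0.850% in gamma B. That difference was 19.7 ± 1.26 points and lay between 18.2 and 20.9 points in the 4 libraries.

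**Figure D3:**
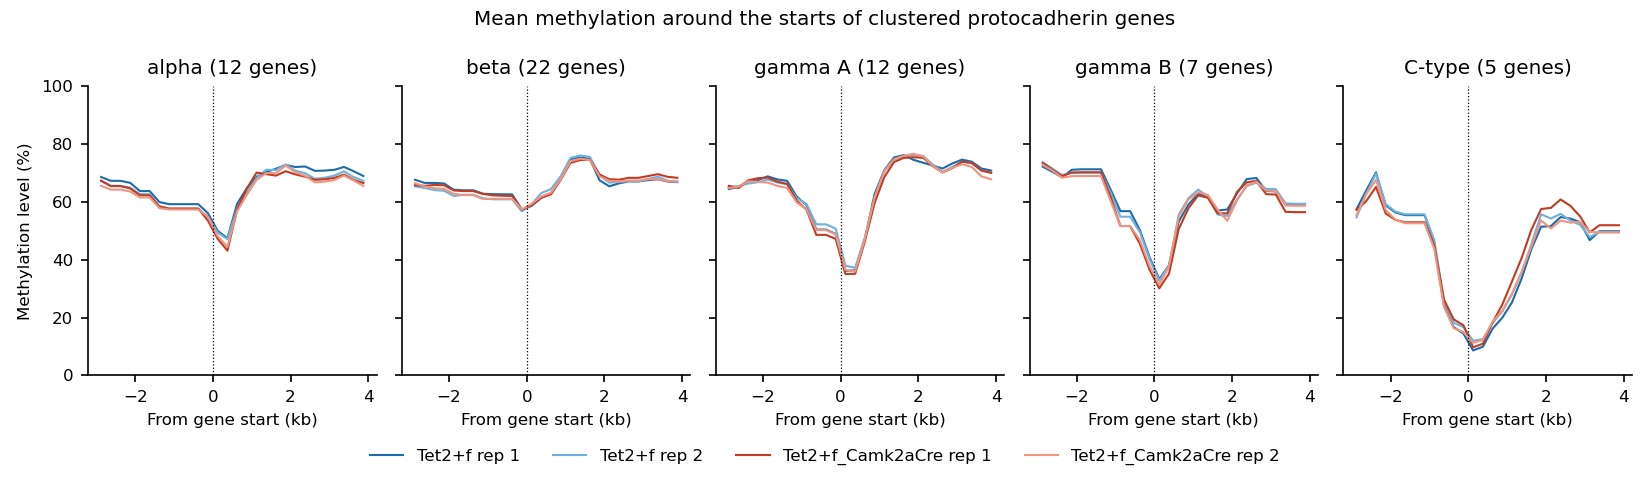
Mean methylation level (%) in bins of 250 bp from 3000 bp before to 4000 bp after the gene start, one line per library and one panel per subfamily. Over the first 500 bp gamma A stands at 36.3% and alpha at 47.1%, while the shallower beta dip has its lowest bin just before the start, at 57.2%.

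C-type genes, the ones used evenly across neurons, included the least methylated starts of the locus. In the first 500 bp the mean of the overlapping regions, weighted by overlap, was 0.478 ± 0.432% for Pcdhac2, 0.449 ± 0.393% for Pcdhgc3 and 1.36 ± 0.718% for Pcdhgc4 (SD, n = 4 libraries). Pcdhac1 and Pcdhgc5 were higher. Pcdhac1 had 21.0% and 22.8% in control libraries and 15.6% and 23.5% in Cre libraries. Pcdhgc5 had 22.5% and 36.3% in control libraries and 34.2% and 33.5% in Cre libraries, the first control library standing below the rest. Its mean of 31.6% was closer to the median of the gamma A and B starts (35.7%) than to Pcdhgc3 and Pcdhgc4.

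Over the whole promoter, taken as 2000 bp before to 500 bp after the gene start, the C-type genes lay 29.4 ± 0.705 points below the 53 other members (26.6% against 56.0%; exact sign-flip permutation p 0.125, lower in 4 of 4 libraries). Pcdhgc4 was the lowest promoter of the gamma cluster, at 7.16% and 7.07% in control and 9.15% and 5.73% in Cre libraries. Pcdhac2 was the lowest of the alpha cluster, at 18.9% and 17.9% in control and 15.7% and 17.4% in Cre libraries. Pcdhgc5, at 50.3%, 54.5%, 58.0% and 52.3% in the same order, stood among the alternate genes.

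Low regions were about as frequent as elsewhere and clustered around these starts. Of the 433 regions 27 had a mean level under 20% (6.24%, against 6.57% of regions outside the locus). Of these 27, 17 were centred within 2500 bp of a C-type start. The lowest, chr18:37806260-37806563 across the start of Pcdhgc3, had 0.125%. Those at Pcdhgc3 (37805601-37808783) and at Pcdhac2 (37142796-37145048) adjoin each other and reach from upstream of the start into the gene. Only 3 low regions lay at alternate genes, all in the gamma cluster: 9.18% at Pcdhgb6 (37742162-37742476), 15.7% at Pcdhga10 (37746972-37747419) and 19.4% at Pcdhgb7 (37751798-37752166). The other 7 lay farther from any protocadherin start. A pair of them at the start of Taf7 (37643792-37644309), which encodes a subunit of the general transcription factor TFIID, had 2.53% and 0.635%. Another pair lay between alpha and beta (37216625-37218329), at 3.89% and 1.64%, with no gene name in the deposited table. Others lay inside or beyond Pcdhgc5 (37824357-37826260 at 3.13% and 37841558-37842129, the last region of the locus, at 14.1%), and the last lay beyond the start of Pcdhac2 (37177972-37179336, 19.9%).

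Alternate alpha genes ranged widely at their starts. The first 500 bp of alpha genes spanned from 30.9 ± 4.21% at Pcdha12 to 63.3 ± 3.14% at Pcdha8 (SD, n = 4 libraries), with a median of 48.5% over genes. Pcdha8 was also the highest alpha promoter, at 70.8% and 68.4% in control and 65.5% and 66.8% in Cre libraries. Upstream of Pcdha8 a highly methylated stretch included the region 36986632-36987533, at 95.0%.

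Beta genes, single-exon genes without a constant part, had the highest mean level at their starts. The range was 39.0 ± 5.45% at Pcdhb1 to 74.2 ± 2.36% at Pcdhb14 (SD, n = 4 libraries), with a median of 62.6%. The highest beta promoter was that of Pcdhb14, at 71.9% and 73.4% in control and 74.0% and 69.0% in Cre libraries. The lowest was that of Pcdhb21, at 53.7% and 51.3% in control and 52.0% and 54.6% in Cre libraries. Every beta promoter lay between 52.9 and 72.1%, a narrower span than that of the 12 alpha promoters (32.1 to 67.9%).

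Gamma A and B genes had starts between 19.7 ± 2.29% at Pcdhga10 and 51.4 ± 6.64% at Pcdhga12 (SD, n = 4 libraries), with a median of 35.7% over 19 genes. The lowest starts formed a run of neighbours: 23.8% at Pcdhgb6, 19.7% at Pcdhga10, 25.5% at Pcdhgb7 and 24.4% at Pcdhga11. Pcdhga12, which follows them after Pcdhgb8, was the highest of the 19. Pcdhgb1 had the highest gamma promoter, at 62.3% and 62.2% in control and 60.9% and 62.1% in Cre libraries.

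**Figure D4:**
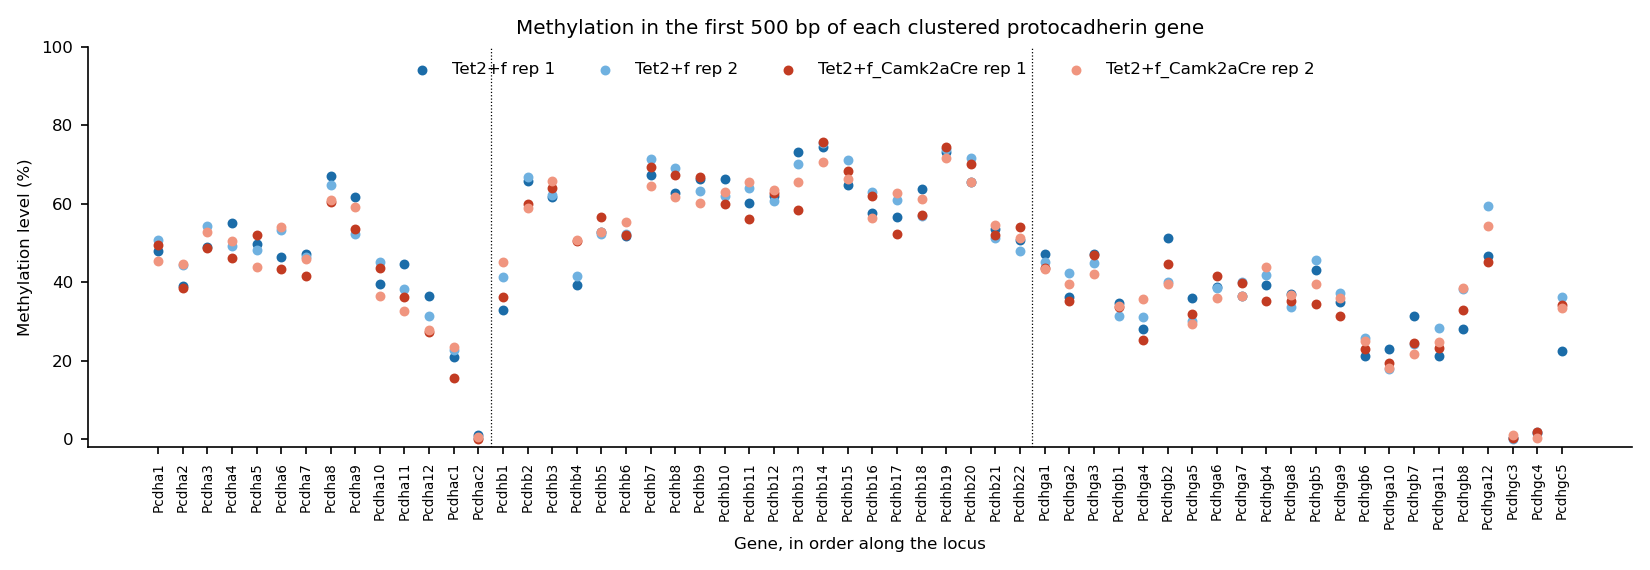
Methylation level (%) over the first 500 bp of each of the 58 genes, in order along the locus, with one point per library; dotted lines part the alpha, beta and gamma clusters. Beta starts run from 39.0 to 74.2% and alpha starts from 30.9 to 63.3%, the lowest gamma A or B start is that of Pcdhga10 at 19.7%, and Pcdhac2, Pcdhgc3 and Pcdhgc4 sit near 0.

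In the gamma cluster the variable exon was less methylated the farther the gene lay along the cluster. Over the first 2500 bp of a gene, the highest level was 68.9% at Pcdhga3 and the lowest 41.4% at Pcdhga11. Neither of these is the first or last of the 19 genes. The Spearman correlation of level with order was -0.807 over the 19 gamma A and B genes, with -0.833 to -0.802 in single libraries. It was -0.357 over 12 alpha genes and 0.196 over 22 beta genes. These are descriptions over genes measured in the same libraries and not tests. At the starts alone the gamma correlation was weaker, at -0.353, with Pcdhga12 and Pcdhgb8 going against it.

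Genes other than protocadherins inside the locus gave a contrast. The promoter of Taf7 had 31.5% and 32.0% in control and 32.3% and 31.5% in Cre libraries. The promoter of Slc25a2, a mitochondrial ornithine carrier gene, was almost fully methylated, at 93.0% and 95.2% in control and 94.5% and 95.5% in Cre libraries. Non-clustered protocadherins, which lie elsewhere in the genome and are not chosen cell by cell, had a mean promoter level of 22.01% over 12 genes. Clustered promoters were 31.4 ± 0.928 points above them (SD, n = 4 libraries; exact sign-flip permutation p 0.125, higher in 4 of 4 libraries). Over all 31669 genes with a promoter value the mean was 53.3% and 53.5% in control and 53.5% and 53.4% in Cre libraries. Clustered promoters, at 54.0%, 53.8%, 52.9% and 53.0% in the same order, thus lay near the mean of all genes. The non-clustered ones lay below it.

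Between the genotypes no region of the locus passed the test. The fit was limma on log2((level + 0.01) / (1 - level + 0.01)) over all 849014 regions with a value in every library, with Benjamini-Hochberg adjustment. Of 433 locus regions 0 had an adjusted p under 0.05 (the smallest was 0.937), as did 0 over the whole table. An unadjusted p under 0.05 was found for 13 locus regions, 3.002%, against 4.6% of all regions. Of these 13, 8 were higher and 5 lower with Cre, against 2.25% and 2.35% of all regions. The count also changed when the first control library was left out. The 2 libraries of each group did not overlap for 59 regions that were higher with Cre and 71 that were lower, together 30.0%, against 15.9% and 16.8%, together 32.8%, over all regions. On the percent scale 28 locus regions had an unadjusted p under 0.05, as did 42071 of all 849014 regions. The mean of the locus was 62.7% with Cre and 63.1% in control, a difference of -0.395 points (Cre minus control). The exact two-sided permutation p was 0.333, the smallest that 6 arrangements of 4 libraries allow. Without the second control library the difference was -0.219 points, and it was -0.346 to -0.570 points with any other library left out.

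Of the 3 clusters, alpha had the largest mean difference. It stood at -0.872 points (65.4 ± 0.292% in control, 64.5 ± 0.154% with Cre; SD, n = 2 per group), with the groups not overlapping and an exact permutation p of 0.333. The 50 regions between beta and gamma differed by nearly as much, at -0.862 points, also with groups not overlapping (exact permutation p 0.333). Gamma differed by -0.371 points (p 0.333, exact permutation; -0.219 without the second control library and -0.212 without the second Cre library) and beta by 0.327 points (p 1, exact permutation). The beta value turned to -0.0797 points without the first control library. By length, short alpha regions differed by -1.36 points and long ones by -0.380 points. In gamma the order was the other way, with -0.0473 points for short and -0.835 points for long regions.

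The locus regions with the smallest unadjusted p (limma) illustrate the size of what was measured. The region 37217745-37218329 between alpha and beta, nearly unmethylated, had 0.571% and 0.536% in control and 2.99% and 2.47% in Cre libraries (p 0.002, adjusted 0.937). Inside Pcdha7, the region 36975141-36975437 had 71.2% and 73.2% in control and 81.3% and 80.6% in Cre libraries. Both were higher in both Cre libraries than in either control. The regions 37629038-37631184 between beta and gamma (8.47 points), 37806983-37807238 in Pcdhgc3 (0.833 points) and 36986632-36987533 upstream of Pcdha8 (3.68 points) were the other 3 with the smallest p among those higher. Among those lower, the region 37756604-37757366 in Pcdhga11 had 59.4% and 56.4% in control and 47.9% and 47.3% in Cre libraries. The other 4 differed by -9.98 points (37803721-37805600, upstream of Pcdhgc3), -9.52 points (36954139-36954378 in Pcdha4), -8.04 points (37594371-37601166, between beta and gamma) and -11.0 points (37020413-37020791 in Pcdha12). All 10 had an adjusted p of 0.937 in limma.

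Promoters of the members were lower with Cre more often than higher, without any passing the test. Of 58 promoters 0 had an adjusted p under 0.05 in limma over 31669 promoters (background 0.0158%; smallest adjusted p 0.930). An unadjusted p under 0.05 was found for 3, against a background of 5.29% (1 higher against 2.5% and 2 lower against 2.78%). The count was 6 on the percent scale, against 1655 of all 31669 promoters, and 5 with a trended and robust prior, against 1457. It also changed when a library was left out. In sign, 43 were lower and 15 higher with Cre, with a median difference of -1.14 points, while 50.8% of all promoters were higher, with a median of 0.0271 points. The groups did not overlap for 15 promoters that were lower (25.9%) and 4 that were higher (6.90%), against a background of 16.9% and 16.8%. The 58 promoters come from the same 4 libraries and are not replicates of the genotype. Their mean per library was 54.0% and 53.8% in control and 52.9% and 53.0% with Cre, a difference of -0.958 points (exact permutation p 0.333).

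By subfamily, 11 of 12 alpha promoters were lower with Cre (median -2.21 points), as were 11 of 12 gamma A (-1.16 points), 6 of 7 gamma B (-2.24 points), 3 of 5 C-type (-0.674 points) and 12 of 22 beta promoters (-0.246 points). The mean over alpha promoters was 55.0% and 54.1% in control and 52.1% and 52.8% with Cre. Beta promoters had 62.4% and 62.3% in control and 62.5% and 62.1% with Cre. The alpha groups did not overlap and the beta groups did, and the difference between alpha and beta in this was not tested. For 3 lists of marker genes of other cell types the mean promoter levels of the groups did not overlap either, each with an exact permutation p of 0.333. Over 6 interneuron markers the mean was 46.9% and 47.1% in control and 45.4% and 46.7% with Cre (5 of 6 lower), over 3 dentate gyrus markers 16.8% and 16.8% against 16.6% and 15.8% (2 of 3 lower), and over 5 microglia markers 63.2% and 62.8% against 62.5% and 62.3% (3 of 5 lower). Groups of CA1 pyramidal, astrocyte, oligodendrocyte and endothelial markers overlapped. The part of cell composition in the promoter differences was not tested.

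Single alpha promoters differed by a few points. Pcdha12 had 35.6% and 33.0% in control and 29.4% and 30.5% in Cre libraries, a difference of -4.37 points (limma p 0.050, adjusted 0.930). Pcdha11 (-3.83 points) and Pcdha8 (-3.46 points) had the next smallest p, and in all 3 both Cre libraries were below both controls. Weighted by region length Pcdha12 differed by 0.568 points, in the other direction. Pcdha10, the one alpha promoter with a positive difference, had 50.5% and 52.5% in control and 54.3% and 50.2% in Cre libraries, and the groups overlapped.

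The 3 promoters with an unadjusted p under 0.05 were all beta genes. Pcdhb4 had 51.7% and 51.5% in control and 59.1% and 58.7% in Cre libraries, a difference of 7.28 points (limma p 0.007, adjusted 0.930). Its first 500 bp had 39.2% and 41.6% in control and 50.6% and 50.7% with Cre. They are part of the same promoter window, which overlapped 2 regions, and so are no separate measurement. Pcdhb2 differed the other way, with 58.5% and 56.9% in control and 52.0% and 52.0% in Cre libraries (-5.68 points, limma p 0.020, adjusted 0.930). Pcdhb13 had 71.4% and 69.5% in control and 63.9% and 66.4% in Cre libraries (-5.32 points, limma p 0.031, adjusted 0.930). Pcdhb2 and Pcdhb4, neighbours but for Pcdhb3, thus differed in opposite directions. The remaining beta promoters singled out by p were Pcdhb12 (2.45 points), Pcdhb20 (2.27 points) and Pcdhb10 (-3.11 points), the last pair with overlapping groups. Pcdhb20 turned to -0.882 points with promoters of 500 bp on both sides and to -0.385 points weighted by region length.

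Gamma promoters were similar in size of difference. Pcdhgb5 had 54.9% and 53.7% in control and 50.01% and 51.1% in Cre libraries (-3.73 points, limma p 0.077, adjusted 0.947). Pcdhga12 (-3.20 points) and Pcdhgc3 (-2.34 points) were likewise lower in both Cre libraries. Pcdhgc3 turned to 0.204 points with promoters of 500 bp on both sides and to 0.351 points over the first 500 bp. The gamma promoters that were higher on average with the smallest p, Pcdhgc5 (2.78 points), Pcdhga4 (1.29 points) and Pcdhgb8 (1.07 points), had overlapping groups, and each changed sign when 1 library was left out: Pcdhgc5 to -0.0538 points without the first Cre library, Pcdhga4 to -1.69 without the second, and Pcdhgb8 to -2.31 without the first control library. The remaining C-type promoters differed by -1.85 points (Pcdhac2), -0.674 points (Pcdhac1) and 0.325 points (Pcdhgc4). Without the first Cre library Pcdhac1 turned to 1.69 points and Pcdhgc4 to -1.38 points, and Pcdhac1 was at 0.0585 points without the second control library.

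**Figure D5:**
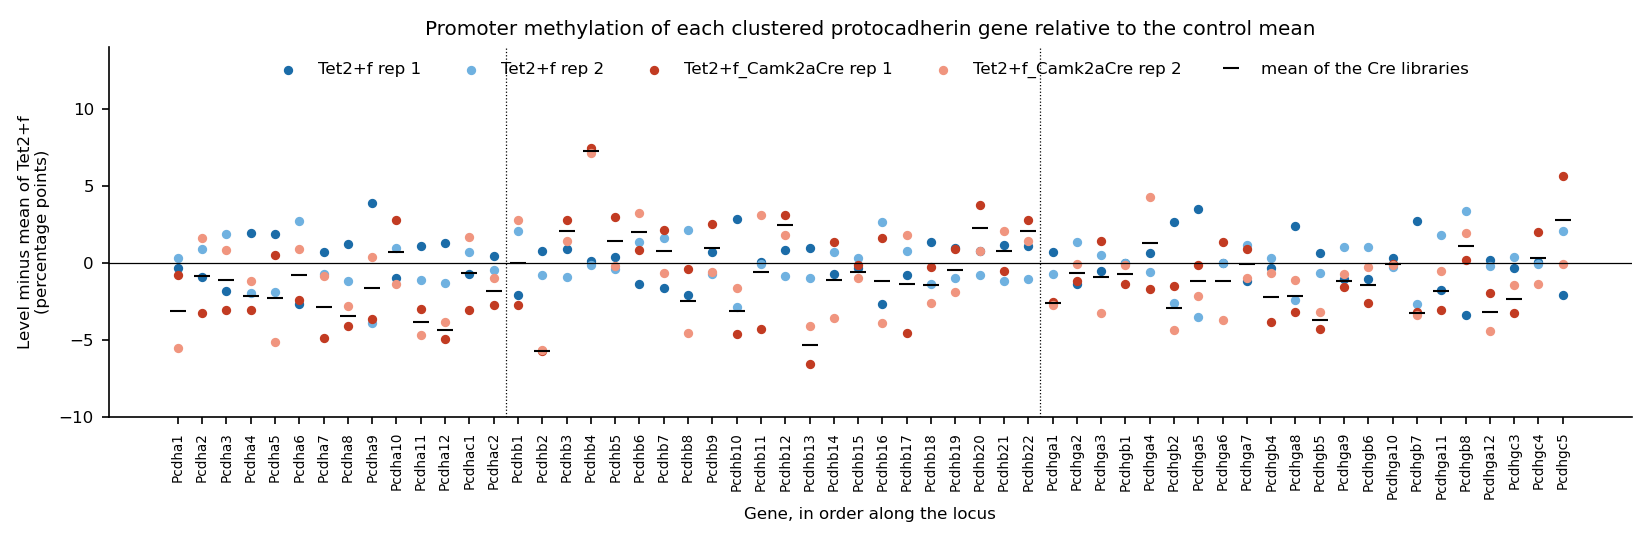
Promoter level of each gene in each library minus the mean of the 2 Tet2+f libraries (percentage points), in order along the locus; black bars mark the mean of the Cre libraries and dotted lines part the clusters. Pcdhb4 (7.28 points), Pcdhb2 (-5.68 points) and Pcdhb13 (-5.32 points) lie farthest from 0.

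Variable exon windows, the first 2500 bp of each gene, showed smaller differences. Of 58, 0 had an adjusted p under 0.05 in limma over 31671 windows (background 0.0158%; smallest adjusted p 0.914), and 34 were lower and 24 higher with Cre (median -0.420 points). An unadjusted p under 0.05 was found for 1, against a background of 5.43% (0 higher against 2.66% and 1 lower against 2.78%). On the percent scale the count was 3, against 1649 of all 31671 windows, and with the replicate block 0, against 1711. It also changed when a library was left out. The 1 was Pcdha12, which had 57.1% and 53.8% in control and 49.9% and 50.05% in Cre libraries (-5.47 points, limma p 0.042). The groups did not overlap for 7 windows that were higher and 13 that were lower, against a background of 16.6% in each direction, together 33.2%. Alpha windows were lower in 11 of 12 cases and beta windows in 10 of 22. All 5 C-type windows were higher with Cre (0.562 to 5.79 points), and in none of them did the groups separate.

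Promoters of proteins known to regulate the locus did not pass the test either. The list holds CTCF, the cohesin subunits and their loader and unloader, the methyltransferases, the silencing factor Smchd1 and other repressors. Of its 17 promoters 8 were higher and 9 lower with Cre, 0 had an adjusted p under 0.05 and 2 had an unadjusted p under 0.05 in limma, against 5.29% of all promoters. Together with the non-clustered protocadherins below, the count was also 2. With promoters of 500 bp on both sides it was 4, against 1634 of all 31664 promoters, and on the percent scale 1, against 1655 of 31669. It also changed when a library was left out. The smallest p went to Wapl, which unloads cohesin, with 66.2% and 66.7% in control and 60.5% and 60.3% in Cre libraries (-6.02 points, limma p 0.011, adjusted 0.930). The Wapl window overlapped only 1 region. Promoter windows were placed at the outermost annotated start of a gene, so a promoter elsewhere in the gene would be missed. Smchd1, which silences the locus, had the smallest p among those higher, with 6.27% and 6.38% in control and 7.21% and 7.44% in Cre libraries. Among the 12 non-clustered protocadherins 8 were higher and 4 lower. The smallest p among these belonged to Pcdh18 (1.04 points) and Pcdh8 (-1.33 points, but 0.418 with promoters of 500 bp on both sides), and 0 had an unadjusted p under 0.05.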

How the data were processed

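Whole-genome bisulfite libraries of CA1 tissue were sequenced to a stated 500000000 reads each, per the labels' protocols. The submitters' processing notes name mm10 as build and list Bismark 0.19.0, Trim Galore 0.4.5, FastQC 0.11.5 and edgeR without their roles. The authors deposited percent methylation per region and library, without counts. How regions were drawn and which cytosines entered is not given in the sources used here, and bisulfite does not separate 5-methylcytosine from 5-hydroxymethylcytosine. Of 849172 regions, 158 lacked a value in a library and were left out of the fits.

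The deposited table names 24 members (22 beta genes, Pcdhac1 and Pcdhga11). The other 34 were placed with RefSeq's genes on GRCm38.p6, and their strand was taken from Pcdhac1 or Pcdhga11 of the same cluster. By that table Pcdhga1 and Pcdhga2 start before the first region named for a gamma gene. Promoter and exon values are means of whole overlapping regions, 1 to 4 per member promoter, and 0 of the 148 regions in member promoters served 2 members. Start values are means of regions weighted by their overlap with the first 500 bp. Tests used limma 3.58.1 in R 4.3.3, tested on simulated data, and exact permutations enumerated in Python 3.11.15 with numpy 2.4.6. The planned test for counts could not be run. Named are, per cluster, the 3 promoters with the smallest p in each direction, the highest and the lowest, the C-type genes, Taf7, Slc25a2, the smallest p of each other list, 5 regions in each direction and the shortest and longest regions; Pcdhb1, Pcdhga3, the neighbours of Pcdhga10 and the regions under 20% were added after their values were seen. The result of 1 member of the regulator list is not reported here. Members and lists were chosen with earlier results of these data known. Replicate numbers did not pair the libraries (r = 0.0887 over the locus). Other settings were other offsets, the percent scale, a replicate block, centring, other window widths and length limits, and leaving out each library.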

Additional observations from a re-analysis of the deposited data

How the results depend on the processing

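With 2 libraries a group, limma's count of 0 locus regions, member promoters and exon windows past the adjusted threshold held under every setting run, including the replicate block. Settings that need read counts, such as a coverage minimum, were not run. The causes of the following changes were not tested.

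Alpha minus beta was 1.55 points weighted by length and 0.112 with each library's median over regions. Short minus long in beta was -3.10 points (under 500 bp) and -0.0399 (under 2000 bp). Under 2000 bp, short locus regions were at -6.58 points against regions elsewhere and -8.10 against those on chromosome 18. The beta group difference ranged from -0.0797 to 0.734 points with a library left out.

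Locus regions with an unadjusted p under 0.05 numbered 13, but 28 on the percent scale (42071 of all 849014 regions). The count also changed with a library left out. For promoters the count was 3, but 6 on the percent scale (1655 of all 31669 promoters) and 5 with a trended and robust prior (1457 of all 31669). It also changed with a library left out. For exon windows the count was 1, but 3 on the percent scale (1649 of all 31671 windows) and 0 with the replicate block (1711 of all 31671). It also changed with a library left out.

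Of 545 values for named genes and regions under other settings, 30 changed sign and 0 passed the adjusted threshold. With a library left out, the ranges that crossed 0 were -1.36 to 2.80 points for Pcdha10, -3.04 to 1.69 for Pcdhac1, -3.58 to 1.35 for Pcdhb14, -0.540 to 2.05 for Pcdhb21, -0.0538 to 5.61 for Pcdhgc5, -1.69 to 4.27 for Pcdhga4, -2.31 to 4.45 for Pcdhgb8, -1.38 to 2.03 for Pcdhgc4, -0.233 to 0.537 for Taf7, -0.196 to 1.93 for Slc25a2 and -3.31 to 1.52 for the longest beta region. Weighted by length, the sign changed for Pcdha10 (-1.02 points), Pcdha12 (0.568), Pcdhb20 (-0.385), Pcdhb14 (0.534) and Pcdhgb8 (-0.768). Over the first 500 bp, a setting chosen after seeing the data, it changed for Pcdha10 (-2.30), Pcdhb20 (-0.882), Pcdhgc3 (0.351), Pcdhgb1 (0.643) and Pcdhgc4 (-0.622). With promoters of 500 bp on both sides it changed for Pcdhb20 (-0.882), Pcdhgc3 (0.204), Pcdhac1 (0.00273) and Pcdh8 (0.418).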
